A study of Mus musculus with 15 samples.

Results

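Conjugating enzymes of the glutathione S-transferase (Gst), UDP-glucuronosyltransferase (Ugt) and cytosolic sulfotransferase (Sult) families were followed in mouse ileal organoids given bile acid mixtures. They were found by symbol: Gst with a class letter and a number, Ugt with a number, or Sult with a number, with at least 1 CPM (the count relative to the total count of the library) in 3 or more of 15 libraries. Of 60 symbols of these forms, 36 met that level, namely 20 Gst, 10 Ugt and 6 Sult genes, out of 13159 genes tested. The choice used the level of a gene, though a gene near 1 CPM can meet it through the groups where it is higher. Gsto2, Ugt8a and Sult1a1 reached 1 CPM in just 3 libraries, all with a mixture. These were M90 b, M90 c and H90 c for Gsto2, and M90 c, M10 c and H90 a for Ugt8a. For Sult1a1 they were H90 c, H10 a and H10 b. Ugt3a2, left out, reached 1 CPM in 2 libraries (highest value 1.04 CPM) and Ugt1a9 in 0 (highest value 0.926 CPM). Of the 24 symbols left out, 11 had no count in any library. All 36 genes passed the filter on low counts.

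Conjugation makes a reactive or fat-soluble compound more polar and easier to export. Glutathione S-transferases join glutathione to electrophiles, among them products of lipid peroxidation. Most enzymes of the Ugt family add glucuronic acid, and sulfotransferases add a sulfate group taken from the donor PAPS. In the small intestine these enzymes act mainly in absorptive enterocytes, beside efflux pumps, on food compounds, drugs and bilirubin, and bile acids themselves can be glucuronidated or sulfated.

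The organoids, epithelial cultures grown from C57BL/6 mouse ileum, were at passage 2. They received 1 of 4 bile acid mixtures or vehicle for 24 h in medium with 0.2% bovine serum albumin. M90 and M10 were mouse mixtures with 90% and 10% 12α-hydroxylated bile acids (12HBA), H90 and H10 human mixtures with 90% and 10% 12HBA, and the fifth group was vehicle. Each group had 3 libraries, named a, b and c. The acids in each mixture and their dose are not given in the sources used here, so a difference between mixtures is one between whole mixtures. Whether the libraries of 1 group are separate cultures or mice is not stated, so p-values measure the spread between these libraries, which may be technical.

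Epithelial markers (6 genes) summed to 10474 to 14220 CPM in every library, while 5 immune and 3 endothelial markers summed to at most 2.84 and 1.72 CPM. Other markers differed by group, and genes of 1 list did not all move alike. Of the ileal enterocyte markers, Fabp6 held most of the difference between M90 (10291 to 10371 CPM) and vehicle (49.7 to 67.4). Fabp2, Apoa4 and Alpi were also higher in M90. Sis overlapped (7560 to 8253 in M90, 7308 to 9324 in vehicle), and Slc10a2 was lower in M90 (40.0 to 48.4) than in vehicle (61.4 to 76.8). Ileal enterocyte markers (6 of 6 tested) summed to 22121 to 22581 CPM in M90, 21365 to 22134 in M10, 13691 to 15034 in H90, 18810 to 19523 in H10 and 8291 to 10281 in vehicle. Markers of dividing crypt cells (6 of 6) summed to 110 to 125 CPM in M90, 23.4 to 29.6 in M10, 482 to 575 in H90, 111 to 120 in H10 and 844 to 856 in vehicle. Goblet and Paneth cell markers (6 of 6) summed to 2071 to 2352 CPM in M90, 3735 to 4218 in M10, 984 to 1080 in H90, 1933 to 2112 in H10 and 482 to 584 in vehicle. In such bulk RNA, fewer cells of a type and less RNA per cell cannot be told apart, and the part of these shifts in the results that follow was not tested. The liver gene Mup20 split the libraries into 2 sets that the labels do not name: 8 libraries (all of M90 and M10, H90 b and c) had 0.356 to 0.583 CPM, and 7 (H90 a, all of H10 and vehicle) had 23.0 to 35.9 CPM. Hepatocyte markers (16 genes) summed to 665 to 840 CPM in M90, 1790 to 2143 in M10 and 472 to 699 in H90. In H10 they summed to 1075 to 1142 and in vehicle to 517 to 609. Most of the M10 sum was Cyp3a11 (1664 to 2026 CPM, against 222 to 245 in vehicle), which overlapped between the sets. Of the 16, 10 were higher in each of those 7 libraries than in any of the 8, and 0 went the other way. Among the 10 was Alb (32.5 to 65.7 CPM in the 8, 93.5 to 137 in the 7). Mesenchymal markers (8 genes) summed to at most 21.3 CPM, and Col1a1 ran from 3.74 to 8.63 CPM in the 8 libraries and from 0 to 0.107 in the 7. Their part in the results was not tested. Set and mixture cannot be told apart for the mouse mixtures except through H90, the group with libraries in both sets. A term for the set therefore rests on H90 a against H90 b and c, and H90 a also stood apart in ribosomal Rn45s RNA, with 14142 CPM against 1739 to 3215 in the other 14 libraries. Losses with the set term cannot be told apart from what is particular to that library. Counts of the 36 genes with the set term are given beside those without it. The share of all genes called with that term, or in other alternative fits, is not given here. Whether a change in these counts is particular to the 36 genes therefore cannot be read from them.

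Against vehicle, the Gst genes moved mostly upwards, led by the mu class, while Ugt and Sult genes went both ways. On the mean of the 4 mixtures 13 of 20 Gst genes were higher and 2 lower at adjusted p under 0.05 (edgeR's quasi-likelihood test). For the 10 Ugt genes it was 2 and 4, and for the 6 Sult genes 2 and 1, where 27.7% of all genes were higher and 30.3% lower. Together the 36 genes took 1.02% ± 0.0667 of all counts in M90, 1.01% ± 0.0411 in M10, 0.712% ± 0.0240 in H90, 0.946% ± 0.0472 in H10 and 0.558% ± 0.0119 in vehicle (SD, n = 3 each). The lowest library with a bile acid mixture was at 0.685% and the highest vehicle library at 0.571%. Most of that difference lay in the Gst genes, with 0.747% of counts in M90, 0.727% in M10, 0.469% in H90, 0.662% in H10 and 0.317% in vehicle. Gstm3 alone took 0.288% in M90, 0.325% in M10, 0.136% in H90, 0.268% in H10 and 0.0485% in vehicle. The Ugt genes took 0.178% in M90, 0.176% in M10, 0.176% in H90, 0.200% in H10 and 0.181% in vehicle, and single members moved in both directions. The Sult genes took 0.0960% in M90, 0.110% in M10, 0.0670% in H90, 0.0841% in H10 and 0.0591% in vehicle.

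With edgeR's quasi-likelihood test and Benjamini-Hochberg adjustment over all 13159 genes (a gene is called at adjusted p under 0.05), 21 of the 36 genes were higher and 3 lower in M90, where 26.2% of all genes were higher and 28.5% lower, 54.7% together. In M10, 17 were higher and 8 lower (31.2% and 33.3% of all genes, 64.5% together). In H90, 13 were higher and 2 lower (11.7% and 9.86% of all genes, 21.6% together), and in H10, 19 were higher and 4 lower (24% and 24.5%, 48.5% together). The median log2 change of the 36 genes was 0.51 in M90, 0.34 in M10, 0.15 in H90 and 0.38 in H10, against -0.02, -0.03, -0.01 and -0.00 over all tested genes. Changes of at least 2-fold were called for 10 genes in M90 (14.0% of all genes), 11 in M10 (22.6%), 1 in H90 (2.04%) and 6 in H10 (10.9%). The single gene in H90 is 2.78% of the 36, near the share over all genes. As shares of the 36 genes, the higher calls came to 58.3% in M90, 47.2% in M10, 36.1% in H90 and 52.8% in H10, above the share over all genes in each, and the lower calls came to less than it. With library set as a term the counts were 16 higher and 3 lower in M90, 15 and 8 in M10, 6 and 1 in H90, and 19 and 4 in H10. Scaling by library size alone, which moved the median of all genes by -0.15 in M90, -0.26 in M10 and -0.13 in H10, gave 21 higher and 10 lower in M90, 14 and 13 in M10, and 17 and 7 in H10.

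Higher calls in all 4 mixtures were made for 12 genes, Gstm3, Gstm1, Gstk1, Gstm6, Sult1d1, Gsta1, Gstm4, Gstm2, Gsta4, Ugt1a1, Gstp1 and Gsto1, where 9.39% of all genes did so. Lower calls in all 4 were made for Sult1c2 alone, where 6.9% of all genes did so. The 4 comparisons share the vehicle libraries. Of the remaining 23 genes, 11 were higher in at least 1 mixture and lower in none, 7 the reverse, Gsta3 went both ways, and the 4 low genes Sult4a1, Ugt8a, Ugt2b1 and Sult1a1 were called in none. In 13 genes all 12 libraries with a mixture lay above all 3 vehicle libraries (11.2% of all genes), and in Sult1c2 and Ugt2a3 all 12 lay below (11.8%). With library set as a term, 5 genes were higher in all 4 mixtures (Gstm3, Gstm1, Sult1d1, Gsta1 and Gsta4) and Sult1c2 was lower in all 4. Scaling by library size alone left 9 higher, without Gstm4, Gstp1 and Gsto1, and added Gstm5 to Sult1c2 as lower.

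**Figure D1:**
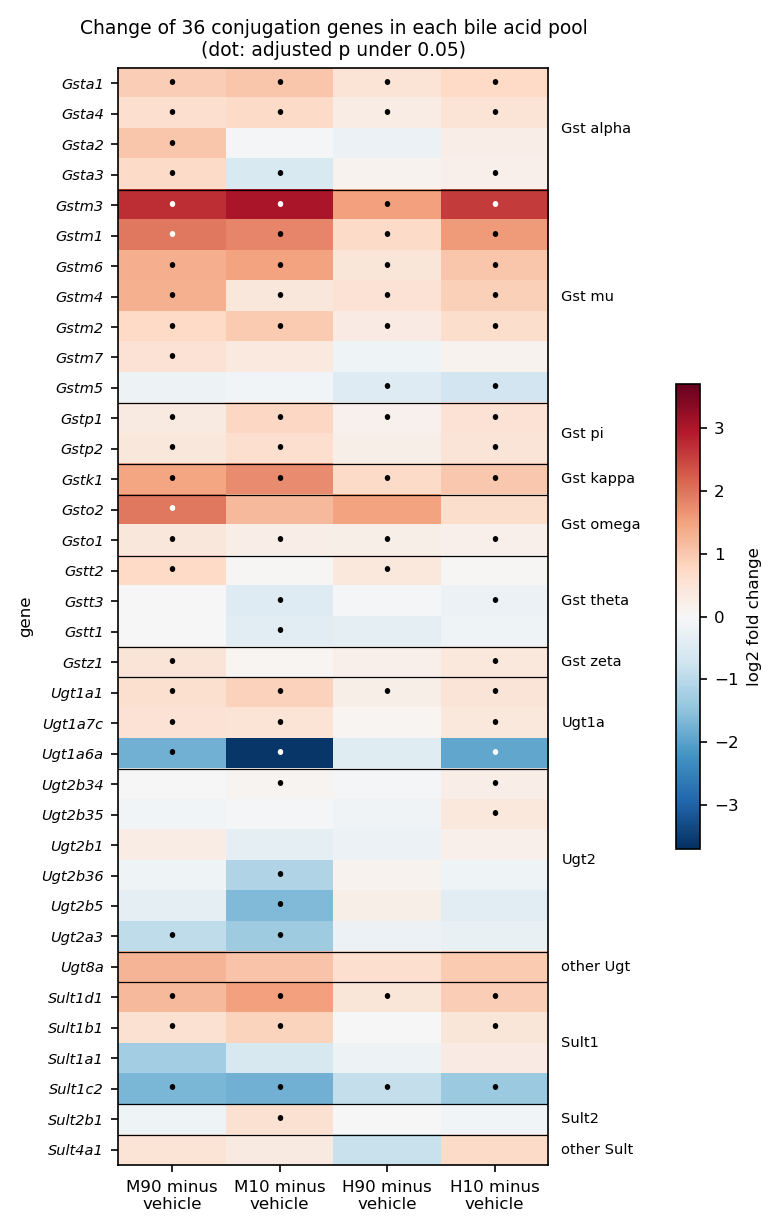
Colour gives the log2 fold change of each of the 36 genes (rows, by family) in M90, M10, H90 and H10 minus vehicle (columns), and a dot marks adjusted p under 0.05. The mu class holds the darkest red cells, Gstm3 at 1.52 to 3.01, and Ugt1a6a in M10 the darkest blue, -3.61.

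The mu class held the largest rises. It lies in a cluster on chromosome 3 (GRCm38, GENCODE vM21, chr3:107895821-108044894), with Gstm5 on the plus strand and Gstm7, Gstm6, Gstm3, Gstm2, Gstm1 and Gstm4 after it on the minus strand. Levels are CPM scaled by TMM, a factor per library that offsets differences in RNA composition. Gstm3 stood at 2632, 3028 and 3177 CPM in M90, 3487, 3557 and 3769 in M10, 1198, 1307 and 1351 in H90, 2419, 2960 and 2750 in H10, and 438, 407 and 497 in vehicle. Every library with a mixture lay at more than the highest vehicle value, and H90 formed a step of its own between vehicle and the other mixtures. The log2 change was 2.72 (SE 0.102) in M90, 3.01 (SE 0.103) in M10, 1.52 (SE 0.0982) in H90 and 2.60 (SE 0.101) in H10, that is 6.58-fold, 8.05-fold, 2.87-fold and 6.06-fold. On the mean of the 4 mixtures it was 2.46 (SE 0.0904, edgeR adjusted p 1.7e-10).

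Gstm1, a mu enzyme abundant in mouse liver, had 1347, 1501 and 1668 CPM in M90, 1265, 1291 and 1469 in M10, 596, 637 and 662 in H90, 1061, 1223 and 1164 in H10, and 368, 371 and 418 in vehicle. M90 and M10 overlapped, and both lay above H10, H90 and vehicle, which did not overlap each other. Its log2 change was 1.96 (SE 0.0879) in M90, 1.8 (SE 0.0875) in M10, 0.71 (SE 0.0861) in H90 and 1.57 (SE 0.0871) in H10. Gstm6 had 34.6, 32.3 and 32.4 CPM in M90, 35.5, 34.9 and 40.0 in M10, 17.0, 19.5 and 16.4 in H90, 24.7, 25.2 and 30.3 in H10, and 13.3, 12.1 and 13.8 in vehicle, the same order of groups as Gstm3. Its log2 change on the mean of the mixtures was 1.08 (SE 0.0947), and the call in H90 (0.44) was lost with the set term (0.38, adjusted p 0.151). Gstm2 followed that order at a smaller size, with means of 84.3 ± 4.69 CPM in M90, 97.7 ± 4.58 in M10, 62.1 ± 7.09 in H90, 78.7 ± 7.63 in H10 and 50.6 ± 4.08 in vehicle (SD, n = 3). Its H90 call (log2 0.29, adjusted p 0.00809) was lost with the set term (0.13, adjusted p 0.559), without H90 library c (0.21, adjusted p 0.0776) and without vehicle library b (0.22, adjusted p 0.0829).

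Other mu genes ran differently. Gstm4 had 43.5, 43.6 and 47.4 CPM in M90, 25.7, 21.2 and 24.0 in M10, 26.5, 20.9 and 31.3 in H90, 31.9, 34.8 and 31.4 in H10, and 19.1, 15.6 and 19.1 in vehicle. Here M90 was highest and M10 lay within the H90 range, unlike in Gstm3, and the M10 call (log2 0.41) was lost under library size scaling (0.14, adjusted p 0.296) and with the set term (0.45, adjusted p 0.0881). Gstm5, at the plus-strand end of the cluster, was lower in H90 (log2 -0.47, SE 0.146) and H10 (-0.70, SE 0.146) and was not called in M90 (-0.20) or M10 (-0.10). Its means were 15.7 CPM in M90, 16.9 in M10, 13.2 in H90, 11.1 in H10 and 18.0 in vehicle, and its H90 call was lost with the set term (-0.63, adjusted p 0.0526). Of its exonic bases, 13.9% lie in exons of 4933431E20Rik, so some of its reads cannot be placed with certainty. Gstm7 was called in M90 alone (log2 0.54, SE 0.167), with means of 13.5 CPM in M90, 12.0 in M10, 8.40 in H90, 10.3 in H10 and 9.37 in vehicle, a call lost with the set term (0.48, adjusted p 0.256). In 50-base windows of the annotated transcripts, 28.8% of Gstm3 and 18.9% of Gstm1 also occur in another gene, chiefly Gm8834 and Gstm2-ps1, and how such reads were counted is not given in the sources used here.

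**Figure D2:**
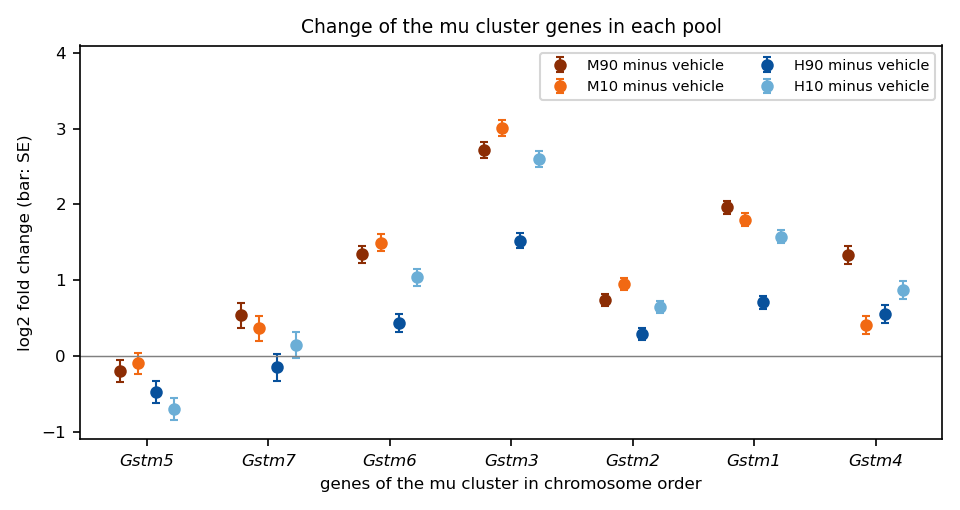
Points give the log2 fold change (bar: SE) of the 7 mu genes in chromosome order, in M90, M10, H90 and H10 minus vehicle. Gstm3 and Gstm1 stand highest in every mixture, and Gstm5, at the left end, is at or under 0 in all 4.

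Bases just before the start sites of 4 cluster genes are shown because the genes lie side by side and differ in response: Gstm3, Gstm1 and Gstm6 rose in all 4 mixtures and Gstm5 in none. They come from RefSeq (GRCm38.p6), up to 250 bases before the annotated start and stopping before any GENCODE exon, 5′ to 3′ along the gene. Capitals mark matches on either strand to TGACNNNGC (core of the antioxidant response element), GCGTG (core of the xenobiotic response element) or AGGTCA (nuclear receptor half-site).
Gstm3, chr3:107969284-107969424, minus strand: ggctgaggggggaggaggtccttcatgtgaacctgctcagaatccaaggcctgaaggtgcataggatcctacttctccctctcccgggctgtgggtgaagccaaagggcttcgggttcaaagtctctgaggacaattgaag
Gstm1, chr3:108017974-108018223, minus strand: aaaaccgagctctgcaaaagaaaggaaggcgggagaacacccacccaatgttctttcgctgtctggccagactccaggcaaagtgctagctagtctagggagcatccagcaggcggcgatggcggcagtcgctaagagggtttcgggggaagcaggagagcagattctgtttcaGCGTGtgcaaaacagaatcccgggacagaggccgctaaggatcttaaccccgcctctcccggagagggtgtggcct
Gstm6, chr3:107943750-107943984, minus strand: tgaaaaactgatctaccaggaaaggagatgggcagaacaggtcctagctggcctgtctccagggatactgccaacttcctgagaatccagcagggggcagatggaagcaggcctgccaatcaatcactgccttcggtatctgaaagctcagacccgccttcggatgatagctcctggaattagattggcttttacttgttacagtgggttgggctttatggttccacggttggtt
Gstm5, chr3:107895604-107895820, plus strand: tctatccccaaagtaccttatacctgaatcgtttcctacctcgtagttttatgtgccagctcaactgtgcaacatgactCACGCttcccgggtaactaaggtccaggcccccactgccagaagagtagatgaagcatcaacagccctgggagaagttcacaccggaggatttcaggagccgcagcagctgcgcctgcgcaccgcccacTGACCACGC
The windows shown for Gstm3 and Gstm6 hold none of these letters, and that of Gstm1 holds GCGTG. That of Gstm5 holds TGACNNNGC, a match to GCGTG that overlaps it, and a further match to GCGTG apart from it. In windows from 250 bases before to 50 after the start, 33 of the 36 genes had an entry. These genes have 43 windows, since some have several starts. TGACNNNGC was found in 3 of the 43 windows (Gsta3, Gstm5 and Gstm7), against 12.392% of 32851 RefSeq windows. GCGTG was found in 11 of the 43, against 32.386%, and AGGTCA in 7 of the 43, against 16.255%. Repeats of that half-site with 1 base between them, direct or inverted, were found in none, against 0.04% and 0.009% of windows. These are matches of letters in a short window and say nothing of binding.

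Among the remaining glutathione S-transferases, Gstk1, a kappa enzyme of mitochondria and peroxisomes, had 33.1, 31.0 and 28.3 CPM in M90, 38.3, 35.4 and 39.8 in M10, 15.2, 18.2 and 22.9 in H90, 22.5, 21.3 and 23.9 in H10, and 11.1, 10.2 and 12.5 in vehicle. The mouse mixtures lay above both human ones, and all above vehicle, with a log2 change of 1.23 (SE 0.107) on the mean of the mixtures. Its H90 call (0.71) was lost with the set term (0.43, adjusted p 0.114). Of the alpha class, Gsta1 had 682, 742 and 747 CPM in M90, 763, 793 and 808 in M10, 499, 547 and 580 in H90, 617, 645 and 662 in H10, and 352, 382 and 421 in vehicle (log2 0.79, SE 0.0458, on the mean of the mixtures). Gsta4, which acts on hydroxynonenal from oxidised lipids, had 929, 865 and 855 CPM in M90, 945, 952 and 897 in M10, 652, 702 and 722 in H90, 827, 788 and 836 in H10, and 561, 564 and 595 in vehicle (log2 0.53, SE 0.0364). Both were called higher in every mixture also with the set term and under library size scaling. Since 90.5% of the 50-base windows of Gsta1 also occur elsewhere, 75.7% in Gm3776, its value may hold reads of that gene.

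Gsta3 and Gsta2 were highest in M90. Gsta3 had 134, 159 and 170 CPM in M90, 62.3, 63.9 and 66.2 in M10, 97.0, 110 and 109 in H90, 102, 119 and 102 in H10, and 90.3, 92.5 and 103 in vehicle. It was higher than vehicle in M90 (log2 0.70, SE 0.0746) and in H10 (0.18, SE 0.0752) and lower in M10 (-0.57, SE 0.0765), and the small H10 change was lost under library size scaling (0.05, adjusted p 0.631). Gsta2 had 12.8, 14.7 and 14.5 CPM in M90, 5.63, 4.87 and 9.17 in M10, 5.44, 5.91 and 6.77 in H90, 7.0, 9.10 and 8.35 in H10, and 6.52, 6.22 and 7.95 in vehicle. Its M90 libraries alone stood clear of vehicle (log2 1.02, SE 0.199), a call lost with the set term (0.81, adjusted p 0.097), and 49.8% of its windows occur elsewhere, mostly in Gsta1.

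The pi, omega, zeta and theta classes were mixed. Gstp1 had 130, 134 and 126 CPM in M90, 175, 183 and 173 in M10, 109, 120 and 121 in H90, 150, 151 and 153 in H10, and 97.6, 99.9 and 114 in vehicle (log2 0.45, SE 0.0478, on the mean of the mixtures), and shared 33.7% of its windows with Gstp2, which was called higher in M90, M10 and H10, in M90 not with the set term (0.42, adjusted p 0.105). H90 overlapped vehicle, and the H90 call (0.17, adjusted p 0.0406) was lost with the set term (0.07, adjusted p 0.728) and under library size scaling (0.13, adjusted p 0.111). Its M90 call (0.32) was lost with the set term too (0.17, adjusted p 0.219). Gsto1, a thiol transferase that also reduces arsenic compounds, averaged 813 ± 19.0 CPM in M90, 718 ± 35.3 in M10, 696 ± 23.4 in H90, 693 ± 23.2 in H10 and 603 ± 18.0 in vehicle (log2 0.27, SE 0.0346). In M10 its change of 0.25 turned to -0.01 (adjusted p 0.795) under library size scaling, and in H10 the change of 0.20 came to 0.07 (adjusted p 0.174). In H90 the Gsto1 call was lost with the set term (0.16, adjusted p 0.0949). Gstz1, which acts in tyrosine breakdown, averaged 80.1 CPM in M90, 60.6 in M10, 65.6 in H90, 75.1 in H10 and 57.1 in vehicle and was called in M90 and H10. Of the theta genes, Gstt2 was higher in M90 (0.74, SE 0.0903) and H90 (0.39, SE 0.0919), Gstt3 lower in M10 (-0.48, SE 0.0709) and H10 (-0.22, SE 0.0706), and Gstt1 lower in M10 (-0.40, SE 0.127). The Gstt2 call in H90 was lost with the set term (0.36, adjusted p 0.0729). Gsto2 stayed at or below 1.41 CPM in every library, and its M90 call (log2 1.95, SE 0.778) was lost with the set term (0.75, adjusted p 0.722). Its 3 libraries at 1 CPM were M90 b, M90 c and H90 c, so it met the rule through groups where it was high, and without it M90 had 20 genes higher and 9 called at 2-fold or more.

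**Figure D3:**
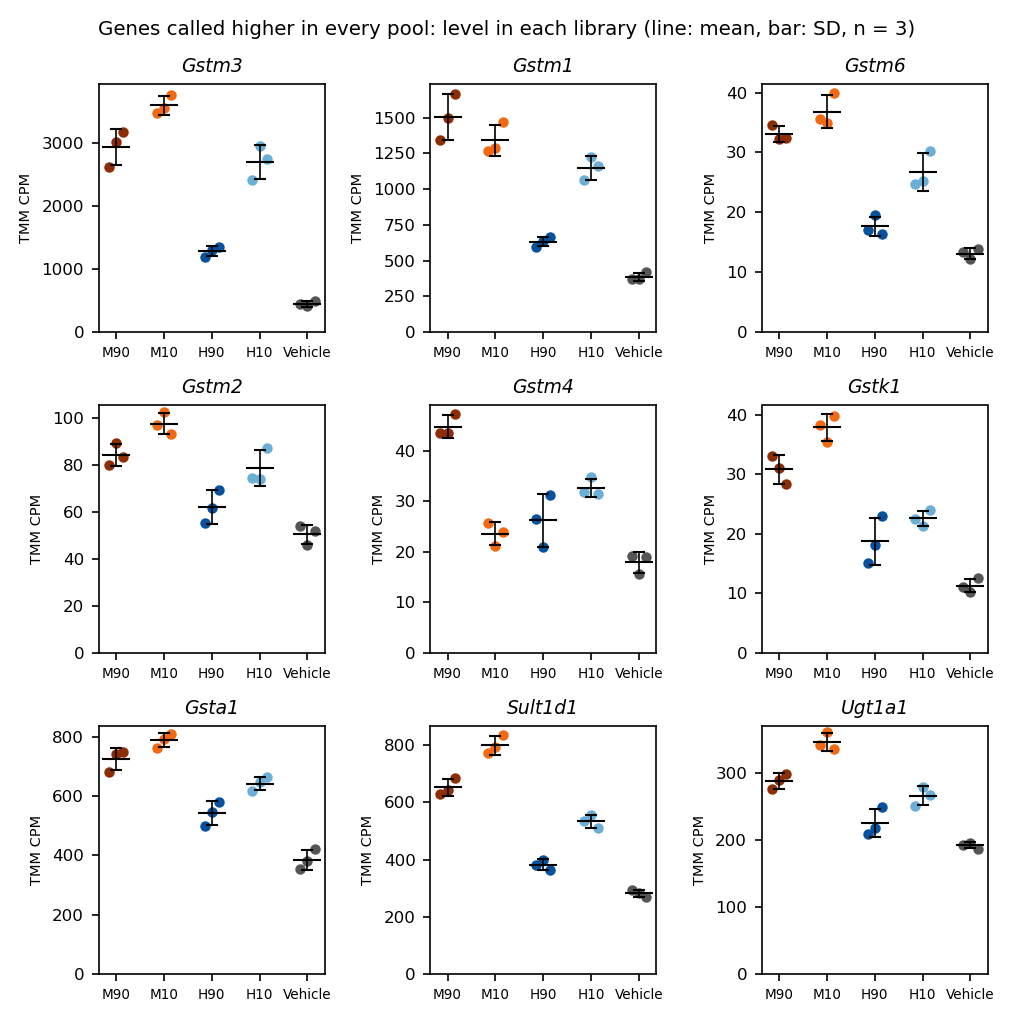
Each panel gives the TMM-scaled CPM of 1 gene in every library of M90, M10, H90, H10 and vehicle (points), with the mean (line) and SD (bar, n = 3). In all 9 panels every group with a mixture has a mean above vehicle, and H90 is the lowest mixture in 8, Gstm4 being lowest in M10.

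Per kilobase of exon, a rough scale for setting levels of different genes side by side, the leading conjugating gene differed between M10 and vehicle. In M10 the order was Gstm3 (2750 CPM per kb), Gstm1 (911), Gsta1 (824), Gsta4 (736) and Gsto1 (355), and in vehicle it was Gsta4 (453), Gsta1 (403), Gstm3 (341), Gsto1 (298) and Gstm1 (262). Among the Ugt genes Ugt2b34 led in both on this scale, with 261 CPM per kb in M10 and 242 in vehicle. Among the Sult genes Sult1d1 led, with 325 in M10 and 114 in vehicle. Exon lengths include bases in exons of other genes, 82.7% of those of Ugt1a1, and 90.5% of the 50-base windows of Gsta1 occur elsewhere. How reads there were counted is not given. The places of Gsta1 and of Ugt1a1 (155 CPM per kb in M10, 86.2 in vehicle) are therefore uncertain, as is the lead of Ugt2b34.

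The Ugt1 genes were split. Ugt1a1, the bilirubin-conjugating enzyme, had 276, 289 and 298 CPM in M90, 342, 360 and 335 in M10, 209, 217 and 248 in H90, 251, 279 and 267 in H10, and 193, 196 and 187 in vehicle. Every library with a mixture lay above vehicle, with a log2 change of 0.53 (SE 0.0440, edgeR adjusted p 3.9e-13) on the mean of the mixtures, but the H90 call (0.23) was lost with the set term (0.13, adjusted p 0.346). Ugt1a7c followed at a mean of 354 CPM in M90, 346 in M10, 260 in H90, 319 in H10 and 245 in vehicle, called in M90, M10 and H10. Ugt1a6a, which conjugates small planar phenols, went the other way: 3.67, 4.13 and 4.66 CPM in M90, 1.95, 0.854 and 0.611 in M10, 12.8, 10.5 and 8.21 in H90, 3.34, 4.63 and 3.37 in H10, and 18.6, 11.6 and 13.1 in vehicle. It fell in M90 (log2 -1.79, SE 0.254), M10 (-3.61, SE 0.290) and H10 (-1.93, SE 0.257), while H90 overlapped vehicle (-0.44, SE 0.240, adjusted p 0.211). The Ugt1 genes have their own first exons and share the rest, so 82.7% of the exonic bases of Ugt1a1, 54.6% of Ugt1a7c and 50.3% of Ugt1a6a lie in exons of other genes. A read in the shared exons does not tell which gene it came from, and how such reads were treated is not given in the sources used here.

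Both genes start at exons of their own on the plus strand of chromosome 1, and the 250 bases before each start (RefSeq, GRCm38.p6, 5′ to 3′, marked as for the mu cluster) are shown because the genes moved in opposite directions.
Ugt1a1, chr1:88211709-88211958, plus strand: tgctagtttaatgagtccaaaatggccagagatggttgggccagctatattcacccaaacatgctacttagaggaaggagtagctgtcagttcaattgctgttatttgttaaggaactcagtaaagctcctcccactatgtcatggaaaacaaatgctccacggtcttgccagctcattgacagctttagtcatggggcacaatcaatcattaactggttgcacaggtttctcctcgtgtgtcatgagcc
Ugt1a6a, chr1:88134559-88134808, plus strand: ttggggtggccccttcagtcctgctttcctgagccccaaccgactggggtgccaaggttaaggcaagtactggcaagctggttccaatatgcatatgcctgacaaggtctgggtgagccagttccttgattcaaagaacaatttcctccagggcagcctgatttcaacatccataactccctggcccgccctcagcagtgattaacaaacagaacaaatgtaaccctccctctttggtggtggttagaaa
Neither window holds any of the letters searched.

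Ugt2 genes, whose products conjugate steroids and bile acids, showed few rises. Ugt2b34, the most abundant, had 978, 1051 and 1051 CPM in M90, 1100, 1085 and 1197 in M10, 994, 1037 and 965 in H90, 1215, 1272 and 1218 in H10, and 1059, 1049 and 1021 in vehicle. H10 alone stood clear of all other groups (log2 0.24, SE 0.0427). The smaller M10 value (0.11, adjusted p 0.0212) overlapped none of the vehicle libraries, was lost with the set term (0.10, adjusted p 0.297) and turned to -0.15 (adjusted p 0.00238) under library size scaling. Ugt2b35 rose in H10 (0.38, SE 0.0752), with a mean of 119 ± 8.68 CPM in H10 and 91.1 ± 1.93 in vehicle.

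Lower calls were made mainly in M10. Ugt2b5 had 17.0, 18.3 and 20.3 CPM in M90, 4.40, 8.54 and 10.3 in M10, 26.7, 27.4 and 30.1 in H90, 16.4, 18.7 and 20.1 in H10, and 24.0, 24.5 and 23.5 in vehicle. M10 lay below all other groups (log2 -1.65, SE 0.176). All M90 and H10 libraries also lay below vehicle, without a call (-0.37, SE 0.165, and -0.38, SE 0.165). Under library size scaling both were called lower (-0.52 and -0.51). On the mean of the mixtures Ugt2b5 was called lower (-0.54, SE 0.127). Of the 50-base windows of this gene, 41.7% occur elsewhere, chiefly in Ugt2b38. Ugt2b36 had 29.5, 33.8 and 42.8 CPM in M90, 15.5, 17.4 and 22 in M10, 41.2, 43.4 and 45.5 in H90, 30.4, 36.2 and 40.5 in H10, and 44.6, 37.8 and 36.7 in vehicle, and was called in M10 alone (log2 -1.12, SE 0.132). Ugt2a3, whose human counterpart glucuronidates bile acids, had 9.69, 12.7 and 13 CPM in M90, 8.35, 8.54 and 10.5 in M10, 20.2, 19.0 and 19.0 in H90, 18.2, 17.2 and 20.8 in H10, and 24.5, 21.7 and 22.4 in vehicle. It fell in M90 (log2 -0.95, SE 0.137) and M10 (-1.33, SE 0.139). H90 (-0.23, adjusted p 0.244) and H10 (-0.28, adjusted p 0.0787) were not called, although all of their libraries lay below vehicle. Ugt8a, which makes galactosylceramide, and Ugt2b1 stayed at or below 1.27 and 1.63 CPM in every library and were not called.

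**Figure D4:**
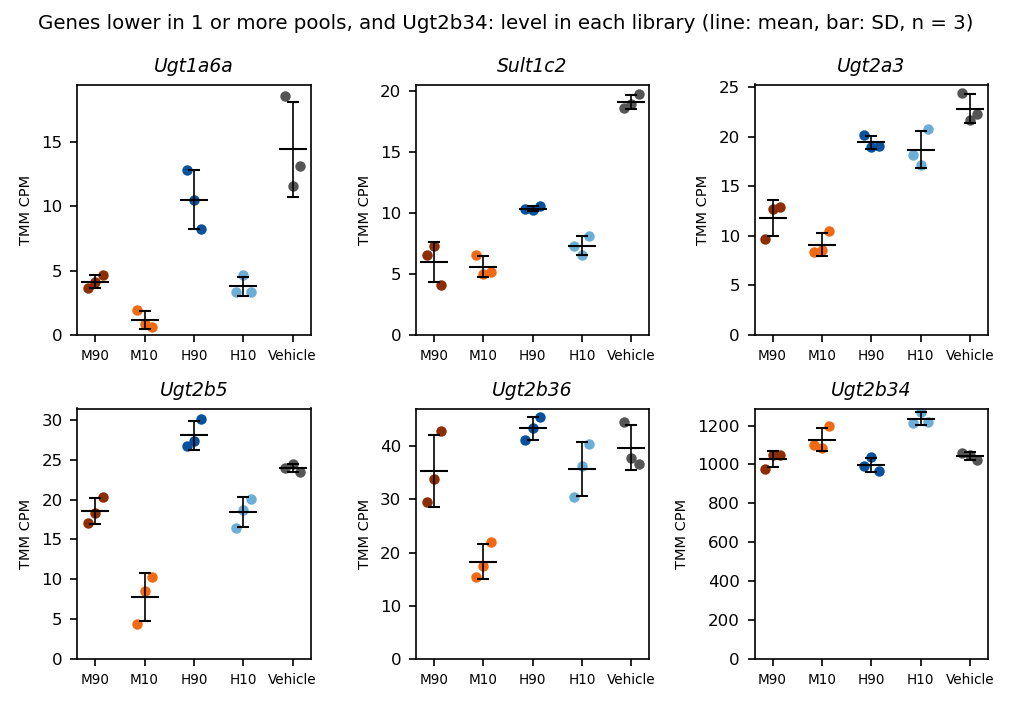
Each panel gives the TMM-scaled CPM of 1 gene in every library of M90, M10, H90, H10 and vehicle (points), with the mean (line) and SD (bar, n = 3). Ugt1a6a, Ugt2b5, Ugt2b36 and Ugt2a3 have their lowest mean in M10 (1.14, 7.76, 18.3 and 9.13 CPM), and Ugt2b34 lies between 999 CPM in H90 and 1235 CPM in H10 on the mean.

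The sulfotransferases also divided. Sult1d1, which in mice sulfates catecholamines, had 628, 644 and 685 CPM in M90, 771, 792 and 837 in M10, 382, 400 and 363 in H90, 533, 556 and 510 in H10, and 292, 282 and 271 in vehicle. No groups overlapped, and on the mean of the mixtures it was 2.03-fold higher (log2 1.02, SE 0.0398, edgeR adjusted p 1.0e-22). Sult1b1, which sulfates phenols and thyroid hormones, had 264, 269 and 264 CPM in M90, 312, 318 and 319 in M10, 175, 191 and 168 in H90, 231, 252 and 255 in H10, and 186, 183 and 168 in vehicle. It rose in M90 (0.57, SE 0.0518), M10 (0.82, SE 0.0518) and H10 (0.46, SE 0.0519), while H90 overlapped vehicle (-0.01, adjusted p 0.951). Both lie on chromosome 5 beside the Ugt2 genes, which did not move alike. In M10 Ugt2a3, Ugt2b5 and Ugt2b36 were lower than in vehicle and Ugt2b34 higher (0.11). Ugt2b35 and Ugt2b1 were not called there.

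Sult1c2 had 6.53, 7.30 and 4.11 CPM in M90, 6.59, 5.04 and 5.19 in M10, 10.3, 10.2 and 10.6 in H90, 7.33, 6.55 and 8.12 in H10, and 18.6, 18.9 and 19.8 in vehicle. All 12 libraries with a mixture lay below vehicle, with H90 closest, and the log2 change was -1.68 (SE 0.183) in M90, -1.76 (SE 0.183) in M10, -0.88 (SE 0.178) in H90 and -1.38 (SE 0.180) in H10. Sult2b1, which sulfates cholesterol, had 52.7, 55.3 and 65.9 CPM in M90, 91.8, 103 and 91.2 in M10, 62.1, 63.3 and 64.2 in H90, 53.6, 64.1 and 63.9 in H10, and 63.4, 66.1 and 63.7 in vehicle. It rose in M10 (0.57, SE 0.0776), where all libraries lay above those of every other group. Sult1a1 and Sult4a1 stayed at or below 1.35 and 1.72 CPM and were not called.

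Raising the 12HBA share in the human mixtures went with lower Gst levels. In H90 minus H10, 4 of the 36 genes were higher and 16 lower (18.2% and 18.4% of all genes, 36.6% together), and of the 20 Gst genes 1 was higher and 10 lower. The set term gave 1 higher and 14 lower, and library size scaling 6 and 13. Gstm3 averaged 1285 ± 78.5 CPM in H90 and 2710 ± 273 in H10 (log2 -1.08, SE 0.0964, edgeR adjusted p 2.8e-06), and Gstm1 632 ± 33.2 in H90 and 1149 ± 82.0 in H10 (log2 -0.86, SE 0.0856). Gstm6 (-0.60, SE 0.112) and Ugt2b35 (-0.52, SE 0.0763) were lower too. Higher were Ugt1a6a, at 10.5 ± 2.32 CPM in H90 and 3.78 ± 0.734 in H10 (1.49, SE 0.259), Ugt2b5 (0.60, SE 0.166), Sult1c2 (0.50, SE 0.185) and Gstt2 (0.35, SE 0.0920). The Sult1c2 call (adjusted p 0.0327) was lost when any of H90 a, b or c or H10 a or b was left out (adjusted p 0.0579 to 0.13), and those of Sult1c2, Ugt2b5 and Gstt2 with the set term (adjusted p 0.159, 0.0935 and 0.06).

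In the mouse mixtures the same step in share went with changes both ways. In M90 minus M10, 12 of the 36 genes were higher and 9 lower (21.3% and 20% of all genes, 41.2% together), while the set term gave 12 and 10 and library size scaling 14 and 5. The largest rises were in Ugt1a6a (log2 1.82, SE 0.300), with 4.15 ± 0.498 CPM in M90 and 1.14 ± 0.715 in M10, Ugt2b5 (1.28, SE 0.177), Gsta3 (1.27, SE 0.0762) and Gsta2 (1.11, SE 0.200). Gsta3 averaged 155 ± 18.4 CPM in M90 and 64.1 ± 1.99 in M10. Lower were Sult2b1 (-0.72, SE 0.0781), at 58.0 ± 7.0 CPM in M90 and 95.4 ± 6.64 in M10, Gstp1 (-0.45, SE 0.0581), Gstk1 (-0.30, SE 0.117) and Sult1d1 (-0.29, SE 0.0463). The Gstk1 call (adjusted p 0.0393) was lost under library size scaling (-0.18, adjusted p 0.207) and without any of M90 b, M90 c, M10 a, M10 c, H10 b or vehicle a (adjusted p 0.05 to 0.175).

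The share effect of the mouse mixtures minus that of the human mixtures, tested as an interaction, was called for 15 of the 36 genes, 14 positive and 1 negative, where 7.85% of all genes were positive and 6.92% negative, 14.8% together. The set term gave 13 positive and 1 negative. Gsta2 (1.55, SE 0.288), Gsta3 (1.31, SE 0.107), Gstm4 (1.25, SE 0.163) and Gstm1 (1.03, SE 0.120, edgeR adjusted p 5.4e-05) had the largest positive values. For Gstm1 the means were 1505 CPM in M90 and 1341 in M10, against 632 in H90 and 1149 in H10. M90 and M10 were not called as different (log2 0.17, adjusted p 0.137). They were under library size scaling (0.28, adjusted p 0.0259) and with a replicate letter block (0.16, adjusted p 0.00172). The negative value was that of Sult2b1 (-0.78, SE 0.112), lower in M90 than in M10 and at 63.2 ± 1.06 CPM in H90 and 60.5 ± 6.02 in H10. Ugt1a6a, higher with the 90% share in both, was not called.

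**Figure D5:**
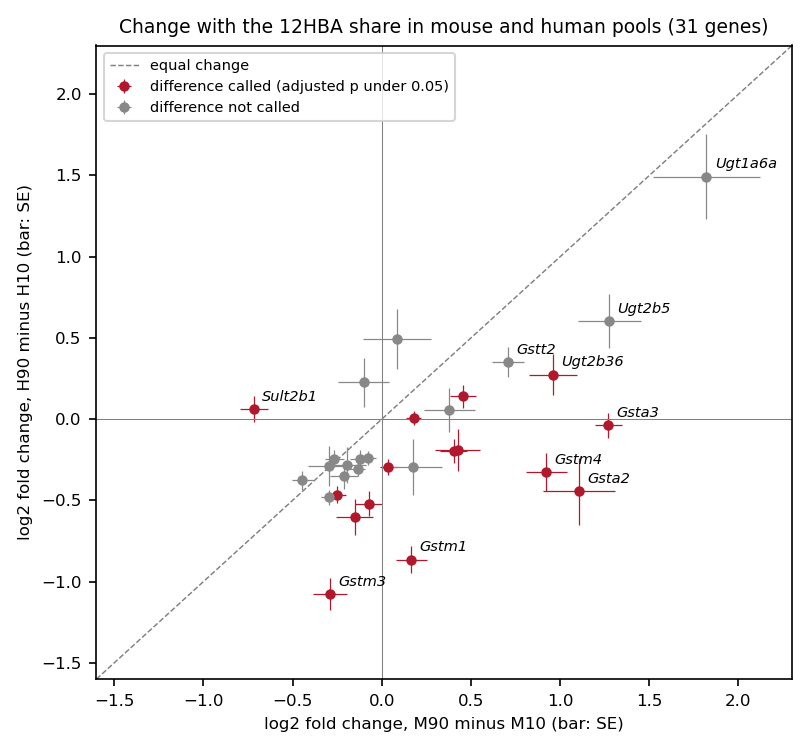
Each point is 1 of 31 genes with a mean of at least 2 CPM, placed by its log2 change in M90 minus M10 (horizontal) and in H90 minus H10 (vertical), with SE bars and a dashed line of equal change. Genes whose 2 changes differed at adjusted p under 0.05 are red: 14 lie below the line, Gsta2, Gsta3, Gstm4 and Gstm1 farthest from it, and Sult2b1 lies above.

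At 90% 12HBA the mouse mixture had more RNA of most Gst genes than the human one. In M90 minus H90, 20 of the 36 genes were higher and 4 lower (19.2% and 19.5% of all genes, 38.8% together), with 16 of 20 Gst genes higher and 0 lower, and the set term gave 18 and 4. Gstm1 (log2 1.25, SE 0.0861), Gsta2 (1.23, SE 0.205), Gstm3 (1.20, SE 0.0966) and Gstm6 (0.91, SE 0.111) led, with Gstm3 at 2945 ± 282 CPM in M90 and 1285 ± 78.5 in H90. Lower were Ugt1a6a (-1.35, SE 0.256), Sult1c2 (-0.80, SE 0.187), Ugt2a3 (-0.72, SE 0.139) and Ugt2b5 (-0.59, SE 0.166).

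At 10%, M10 minus H10 had 12 genes higher and 10 lower (18.2% and 18.1% of all genes, 36.3% together), but with library set as a term 3 higher and 6 lower, and library size scaling gave 9 and 12. All M10 libraries belong to 1 set and all H10 libraries to the other, so these numbers rest on how the set is treated. The calls kept with the set term were Sult1d1, Sult2b1 and Sult1b1, higher, and Ugt2b5, Ugt2a3, Ugt2b36, Gsta3, Ugt2b35 and Gstt3, lower. Sult2b1 was higher by a log2 of 0.65 (SE 0.0781) and Sult1d1 by 0.59 (SE 0.0465), with 800 ± 33.7 CPM in M10 and 533 ± 22.8 in H10. Ugt2b5 (-1.27, SE 0.178), Ugt2a3 (-1.04, SE 0.140) and Ugt2b36 (-0.98, SE 0.133) were lower, and of the 6 Ugt2 genes 5 were lower and 0 higher. Gstk1 (0.74), Gstm5 (0.60) and Ugt1a6a (-1.68) were called without the set term and not with it (0.31, 0.37 and -1.23, adjusted p 0.34, 0.387 and 0.0744).

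Genes that supply the conjugation reactions or handle their products went both ways on the mean of the 4 mixtures against vehicle. Of all genes, 27.7% were higher there and 30.3% lower (57.9% together). Of 14 genes of glutathione supply and handling, 8 were higher and 1 lower. Slc7a11, the cystine importer, averaged 16.5 ± 2.09 CPM in M90, 32.1 ± 2.51 in M10, 11.6 ± 1.81 in H90, 28.5 ± 4.62 in H10 and 4.42 ± 0.174 in vehicle (log2 2.21, SE 0.133). Gclm, the modifier subunit of the rate-limiting ligase, averaged 214 CPM in M90, 201 in M10, 136 in H90, 176 in H10 and 109 in vehicle (0.71, SE 0.0438), whereas its catalytic partner Gclc was at 280 CPM in M90, 200 in M10, 183 in H90, 243 in H10 and 199 in vehicle (0.16, SE 0.0459), called in M90 and H10 alone. Ggt1, which cleaves glutathione conjugates outside the cell, rose (1.52, SE 0.0595), as did Chac1, which degrades glutathione (1.93, SE 0.0800). Glutathione synthetase, Gss, fell (-0.32, SE 0.0381), and Gsr of the same list was not called (-0.06, SE 0.0387).

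Of 9 genes of UDP-glucuronic acid supply, 4 were higher and 2 lower. Slc35d1, which carries the donor into the endoplasmic reticulum, averaged 57.1 CPM in M90, 60.2 in M10, 42.1 in H90, 54.6 in H10 and 34.8 in vehicle (log2 0.60, SE 0.0672). Ugdh, which makes the donor, averaged 518 CPM in M90, 380 in M10, 434 in H90, 408 in H10 and 457 in vehicle. It was higher in M90 (0.18, SE 0.0517) and lower in M10 (-0.27, SE 0.0519) and H10 (-0.17, SE 0.0519), and was not called on the mean of the mixtures (-0.08, adjusted p 0.0831). Of 10 tested genes of PAPS supply and sulfate handling, 4 were higher and 2 lower, and the synthases parted: Papss2 rose (0.77, SE 0.0514), with 113 CPM in M90, 147 in M10, 81.7 in H90, 111 in H10 and 64.6 in vehicle, while Papss1 fell (-0.59, SE 0.0358), with 154 CPM in M90, 159 in M10, 177 in H90, 172 in H10 and 248 in vehicle. Of 11 conjugate efflux pumps, 7 were higher and 1 lower. Abcc2, which exports glutathione and glucuronide conjugates into the lumen, averaged 840 ± 16.6 CPM in M90, 1153 ± 5.57 in M10, 502 ± 31.3 in H90, 873 ± 44.3 in H10 and 386 ± 20 in vehicle (1.06, SE 0.0391), and Abcg2, a sulfate conjugate pump, rose as well (0.73, SE 0.0407).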

How the data were processed

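RNA of 15 organoid libraries was measured by poly-A TruSeq sequencing, with RNA integrity above 8 per the labels' protocols. The deposited values are raw counts of reads for each gene symbol, without normalization. The submitters' processing notes name featureCounts 1.5.0-p3, STAR 2.5.2b, bcl2fastq 2.17 and the build mm10. Annotation, strand setting and the treatment of reads that fit several genes are not given in the sources used here. Files list 23420 symbols, and depths ran from 11245807 to 28989526 counts.

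Genes were filtered by filterByExpr, scaled by TMM and tested with edgeR (robust, two-sided) on group means of all 15 libraries, with 10 residual degrees of freedom. Standard errors hold the spread between libraries. Levels are TMM-scaled CPM, except that the membership rule, marker sums, shares of counts and Mup20 use plain totals. The 36 genes and the lists beside them were chosen with earlier results of these data known. Named genes are the most abundant of each family, those called in all 4 mixtures (the 8 largest each way), and the 4 largest calls each way between mixtures (mean of at least 2 CPM). Other genes complete a family. Replicate letters were not used as pairs, since nothing in the labels ties letters to a shared source. Residual correlations ran from -0.0478 to 0.0745 for libraries with a shared letter and from -0.0592 to 0.0404 for other letters. Code was tested on simulated data. Coordinates and exon lengths come from GENCODE vM21 for all 36 genes and promoters from RefSeq GRCm38.p6 for 33. Software was edgeR 4.0.16, DESeq2 1.42.0 and limma 3.58.1 in R 4.3.3, and figures came from matplotlib 3.10.9 under python 3.11.15. Alternatives were RLE and library size scaling, other filters, DESeq2, limma-voom, a replicate letter block, non-robust shrinkage, fits on the compared groups only, and leaving out each library. A term for library set was chosen after seeing the data.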

Additional observations from a re-analysis of the deposited data

Results flagged for a closer look

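Because the effect of the 12HBA share differed between the mouse and the human mixtures (an interaction tested by edgeR's quasi-likelihood test, adjusted p under 0.05), 15 genes stand out. The values are the log2 change of M90 minus M10 less that of H90 minus H10. They were 1.55 for Gsta2, 1.31 for Gsta3, 1.25 for Gstm4, 1.03 for Gstm1, 0.79 for Gstm3 and 0.45 for Gstm6. They were 0.68 for Ugt2b36, 0.45 for Ugt2b35, 0.33 for Ugt1a7c, 0.62 for Gstt1, 0.31 for Gstt3, 0.60 for Gstz1, 0.17 for Gsto1 and 0.21 for Sult1b1, and -0.78 for Sult2b1. Of all tested genes 14.8% met the same threshold.

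Some of these calls, at adjusted p 0.0168 (Gstt1) to 0.0488 (Gsto1) by edgeR's quasi-likelihood test, were lost when single libraries were left out. Gsto1 was lost without any 1 of 9 libraries (adjusted p 0.0509 to 0.166), Sult1b1 without any 1 of 9 (0.0545 to 0.135), Gstm6 without any 1 of 8 (0.0651 to 0.184), Gstt3 without any 1 of 7 (0.0533 to 0.0861) and Gstt1 without any 1 of 4 (0.0502 to 0.0614). With library set as a term Gstm6 (adjusted p 0.0847) and Sult1b1 (0.0927) were lost.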

How the results depend on the processing

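The number of the 36 genes called stayed within 1.5 times its value in each comparison under the alternatives run, apart from the library set term (chosen after seeing the data). That term gave 7 genes in H90 minus vehicle (15 without it) and 9 in M10 minus H10 (22 without it). These numbers join higher and lower calls, and their balance moved under library size scaling. In M90 minus vehicle that scaling gave 21 higher and 10 lower (21 and 3 in the main fit). In M10 minus vehicle it gave 14 and 13 (17 and 8 in the main fit), with Gsto1 and Ugt2b34 changing direction. The share of all genes called under these alternatives is not given here, and the cause was not tested. Leaving out single libraries gave 22 to 25 genes in M90 minus vehicle, 23 to 26 in M10 minus vehicle, 12 to 17 in H90 minus vehicle, 22 to 23 in H10 minus vehicle, 23 to 26 on the mean of the mixtures, 16 to 20 in H90 minus H10, 18 to 22 in M90 minus M10, 21 to 24 in M10 minus H10, 22 to 26 in M90 minus H90 and 10 to 17 for the interaction.

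Library size scaling moved the median of all genes by 0.11 in M90 minus M10, -0.13 in M10 minus H10 and -0.11 in M90 minus H90. On the mean of the mixtures, where it moved that median by -0.15 and the share of higher calls to 30.8% (47.7% with TMM), it turned the changes of Ugt2b34 and Sult2b1 to -0.08 and -0.07. That of Sult4a1, under 2 CPM, ran from -0.20 without vehicle library a to 0.44 without vehicle library c. Of the log2 changes of named genes, 962 of those under other settings kept direction and side of the threshold, 17 lost the call and 3 gained it. The replicate block gave 24 genes on the mean of the mixtures, 17 higher and 7 lower, and 18 for the interaction against 15. Gstm1 in M10 minus H10, not called in the main fit (0.22, adjusted p 0.056), was called with the block (0.22, adjusted p 6.0e-05). The median residual correlation was 0.00384 for libraries with the same letter (highest 0.0745) and -0.0032 for other letters (highest 0.0404). For 11 of 15 libraries the best match had the same letter, and whether a letter marks a shared source was not tested. Depth limits the 5 genes near 1 CPM, whose changes have SEs of 0.427 to 0.684 on the mean of the mixtures.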

Other observations

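Enzymes beside the 3 families and regulators of conjugating genes were set against vehicle on the mean of the 4 mixtures by edgeR's quasi-likelihood test, by which 27.7% of all genes were higher and 30.3% lower. Of 14 tested other conjugating and detoxifying enzymes, 4 were higher (28.6%, near that share) and 2 lower (14.3%). The epoxide hydrolases had the largest rises: Ephx1 averaged 515 ± 4.84 CPM in M90, 308 ± 8.35 in M10, 232 ± 10.7 in H90, 345 ± 20.8 in H10 and 139 ± 7.53 in vehicle (SD, n = 3 each; log2 1.27, SE 0.0427), and Ephx2 305 ± 48.7 CPM in M90, 362 ± 15.2 in M10, 106 ± 4.63 in H90, 139 ± 9.21 in H10 and 52.2 ± 3.93 in vehicle (log2 1.94, SE 0.0846). Of the microsomal glutathione transferases, Mgst2 (0.32) and Mgst3 (0.26) were higher and Mgst1 (-0.16) lower. Mgst1 averaged 459 CPM in M90, 258 in M10, 468 in H90, 386 in H10 and 427 in vehicle, and was called lower in M10 (-0.73) and H10 (-0.15) and not called in M90 (0.10) or H90 (0.13). Nqo1, a quinone reductase, was at 79.5 CPM in M90, 38.7 in M10, 76.9 in H90, 62.4 in H10 and 71.5 in vehicle and was not called on the mean of the mixtures (adjusted p 0.0739), though it was lower in M10 (-0.89, SE 0.125).

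Of 14 regulators, 7 were higher and 4 lower (28.6%, near the share of all genes). Nr1i2, the pregnane X receptor, averaged 190 ± 4.18 CPM in M90, 181 ± 4.37 in M10, 135 ± 8.32 in H90, 165 ± 1.57 in H10 and 95.1 ± 5.49 in vehicle (log2 0.80, SE 0.0454). Ppara rose by 0.75 (SE 0.0493), and Nfe2l2, which drives antioxidant genes, by 0.10 (SE 0.0322), with 574 CPM in M90, 452 in M10, 538 in H90, 676 in H10 and 515 in vehicle. In M10 alone Nfe2l2 was lower (-0.19, SE 0.0405). The aryl hydrocarbon receptor gene Ahr fell (-0.26, SE 0.102, adjusted p 0.0288).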
